A study of Apis mellifera with 6 samples.

Results

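The comparison described here sets the hypopharyngeal glands of bees that had pollen and brood against those of bees with neither. It uses 4 of the 6 RNA sequencing libraries of the study, the 2 of the Brood group and the 2 of the Honey group, chosen by their labels. The 2 libraries of the Pollen group are given beside them. All libraries came from glands of worker honeybees (Apis mellifera), each from a colony of its own. Bees of the Honey group received only honey, and their queen was caged so that brood dwindled. Bees of the Pollen group also had a caged queen, and received rape pollen with their honey. Bees of the Brood group were fed honey with rape pollen, and their queen laid eggs without restriction. Brood and Honey therefore differ in pollen and in brood together, and the share of each cannot be told apart. By the sample labels they also differ in age. Bees of the Honey group were taken 11 and 12 days after emergence, those of the Brood group at 13 and 14 days and those of the Pollen group at 9 and 10 days, whereas the series text gives 9 days for every bee. If the labels hold, the ages of the groups do not overlap, and age varies within a group only by the 1 day between replicates 1 and 2.

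The hypopharyngeal gland is a paired gland in the head of the worker bee. In nurse bees it is large and secretes the protein-rich part of the jelly that is fed to larvae and to the queen, and pollen is the colony's source of protein. The gland is small in bees that do not nurse, and later in life it turns to enzymes that act on nectar sugars.

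Each library is described by the number of counted fragments for each of 10704 gene models. Totals were 4120794 and 2764870 fragments in the Honey libraries and 3459632 and 3525248 in the Brood libraries. Values in pairs are those of replicate 1 and then replicate 2 of a group. The deposited files do not pair their model identifiers with gene names, and 0 of the 10704 matched the reference table, so models are given by position and the tissue label could not be checked against marker genes. Positions are those of the files, whose genome build the sources used here do not name. The question was how the gland divides its RNA in each state, which models account for the difference, and which models had fragments in one state alone. In whole glands, fewer cells of a type and less RNA per cell cannot be told apart.

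Brood glands put most of their fragments into a handful of models, whereas Honey glands spread them over many. In Honey, the fewest models that together held 50% of fragments were 117 and 88. In Brood they were 4 and 4, and in Pollen they were 8 and 11. Every Brood library needed fewer models than every Honey library. To hold 90% of fragments took 1861 and 1517 models in Honey, and 458 and 450 in Brood.

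The difference lay mainly among the very highest ranks. The most abundant model alone held 12.6% ± 0.918 of fragments in Honey and 24.3% ± 1.22 in Brood (SD, n = 2 each). The 100 most abundant held 50.0% ± 2.52 in Honey and 80.9% ± 0.254 in Brood. The 1000 most abundant held 83.4% ± 2.31 and 93.8% ± 0.0638, so the curves drew together at higher ranks. At each of these ranks both Brood libraries lay above both Honey libraries, but 2 libraries against 2 cannot give an exact two-sided permutation p under 0.333.

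**Figure D1:**
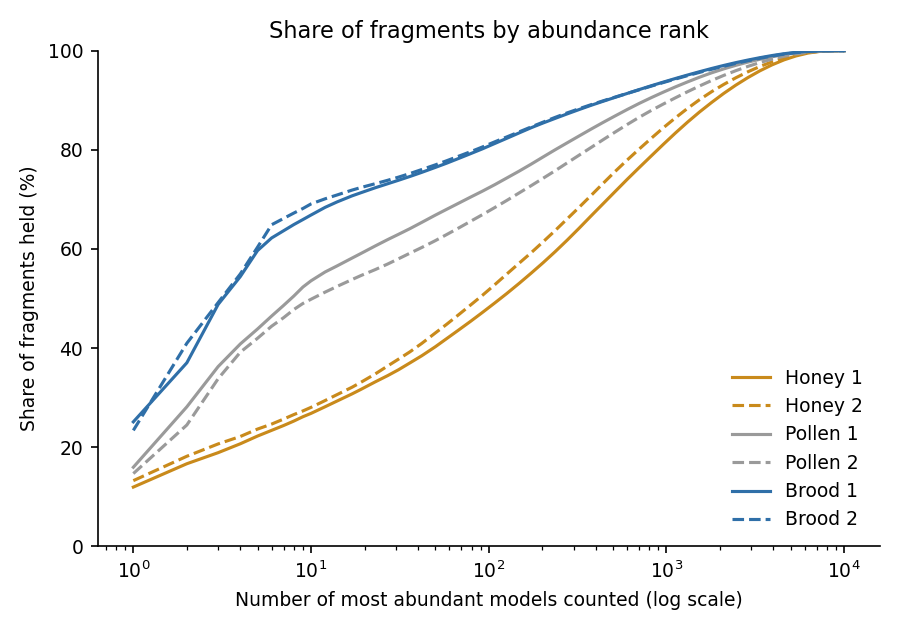
Share of fragments (%, vertical axis) held by the most abundant models of each library, counted from the most abundant on (horizontal axis, log scale), with 1 line per library and dashed lines for replicate 2. At 10 models the Honey libraries stood at 26.8% and 28.0% and the Brood libraries at 66.9% and 69.1%.

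Fragments were also divided by the listed model length, to set levels of different models side by side. No correction for fragment size was made, so values per base of very short models are uncertain. Per base, the 10 most abundant models held 66.8% ± 1.02 of the summed level in Honey and 84.1% ± 0.242 in Brood (SD, n = 2 each). On this scale 90% of the summed level was held by 805 and 524 models in Honey, against 56 and 52 in Brood. A single model of 237 bases, gene5402, held 50.2% ± 1.37 of the summed level per base in Honey and 61.1% ± 0.921 in Brood. The number of models that held 50% on this scale was therefore 2 and 1 in Honey and 1 and 1 in Brood, and Honey 2 did not differ from Brood in it.

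Brood and Honey shared a larger part of their leading models in longer lists, which the growing length of the lists favours by itself. Of the 10 models with the highest mean share in Brood, 3 were also among the 10 highest in Honey. Of the 100 highest, 46 were shared, which is 46% of either list, and of the 500 highest, 296 (59.2%). The 10 leading models of Brood held 66.9% and 69.1% of fragments in Brood, but 16.4% and 18.4% in Honey. The 10 leading models of Honey held 26.8% and 27.7% in Honey and about as much, 29.2% and 26.9%, in Brood. Most of that share in Brood came from 1 model that led both lists.

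That model, gene5402, lies on linkage group 6 from 15407272 to 15408113 and had the most fragments of any model in all 6 libraries. It had 492675 and 366463 fragments in Honey, 662925 and 520745 in Pollen, and 868998 and 824768 in Brood. Both Brood libraries lay above both Honey libraries. Scaled to a common library size by the TMM method, which sets the bulk of models equal, it rose 4.85-fold in Brood (95% interval 1.90 to 12.4), with an adjusted p of 0.00810 in edgeR's quasi-likelihood test. The call was lost without Brood 1 (log2 change 2.16, adjusted p = 0.113 in edgeR) and without Brood 2 (2.37, 0.0736). It was also lost in limma on log2(FPKM + 1) (adjusted p = 0.0910), and with each library's trend with model length removed, where the log2 change was 0.41. With library totals the log2 change was 0.94, against 2.28 with TMM scaling.

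The largest block of the Brood budget was a run of models on linkage group 11, here called the tandem region. Between 2563562 and 2614036, 8 of them lie on the plus strand within 50475 bases. Its 6 models with fragments in all 3 groups held 0.776% and 0.585% of fragments in Honey, 9.54% and 13.1% in Pollen, and 31.9% and 35.8% in Brood. The 3 groups did not overlap. With the 2 models listed at 0 in Brood counted in, all 8 held 2.71% and 1.65% in Honey, 17.7% and 22.9% in Pollen, and the same 31.9% and 35.8% in Brood. Whether these models are alike in sequence was not examined. The sources used here do not say how counting would divide fragments among similar models, so the division within the region is uncertain.

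Within the region, 4 models stood among the 6 most abundant of Brood. The model from 2563562 to 2566839 had 716 and 235 fragments in Honey, 75428 and 29141 in Pollen, and 407382 and 619743 in Brood. It moved from rank 1067 in Honey to rank 2 in Brood, a log2 change of 11.52 (SE 0.97; adjusted p = 1.1e-05, edgeR). The model from 2610927 to 2614036 had 1556 and 362 fragments in Honey, 88691 and 86271 in Pollen, and 412262 and 289320 in Brood. It moved from rank 588 to rank 3, with a log2 change of 10.04 (SE 0.86), or 10.81 without Honey 1.

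The other two changed less from Honey. The model from 2575604 to 2578838 had 1703 and 581 fragments in Honey, 79246 and 60587 in Pollen, and 194587 and 190323 in Brood, a log2 change of 8.85 (SE 0.72). The model from 2586955 to 2590494 had 9271 and 3163 in Honey, 108121 and 189922 in Pollen, and 88124 and 159508 in Brood, a log2 change of 5.75 (SE 0.65). For this last model the Pollen libraries overlapped those of Brood, while for the other 3 each Pollen library lay between Honey and Brood.

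One member of the region went the opposite way. The model from 2581588 to 2584699 had 18741 and 11833 fragments in Honey, 44838 and 99720 in Pollen, and 2366 and 2261 in Brood. Brood was the lowest group and Pollen the highest, and between Brood and Honey the model fell by 1.39 on the log2 scale (SE 0.47; adjusted p = 0.0234, edgeR). It held 0.441% ± 0.0190 of fragments in Honey and 0.0663% ± 0.00301 in Brood (SD, n = 2 each).

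Models flanking the region on the same strand shared its direction at far lower levels. In all, 12 plus-strand models lie between 2554644 and 2644204, of which 9 were called higher in Brood, 1 was called lower and 2 were listed at 0 in Brood. Among all tested models, 28.4% were called higher and 28.8% lower, 57.2% in all. The region was drawn around neighbouring models that reach 10000 or more fragments in a library, so these counts are a description and no test. The model from 2554644 to 2560104 had 1 and 0 fragments in Honey, 187 and 1 in Pollen, and 457 and 341 in Brood. The model from 2624895 to 2628349 had 3 and 3, 7 and 7, and 234 and 171 in the same order. The model from 2614875 to 2618809 had 13 and 0, 224 and 191, and 181 and 281, so in raw fragments its Pollen and Brood libraries overlapped. In TMM-scaled counts per library size (CPM) they did not, at 67.7 and 52.4 in Pollen and 82.7 and 115.9 in Brood. The last model of the stretch, from 2632487 to 2644204, had only 1 and 0 in Honey and 25 and 34 in Brood. Both of the next models outside the stretch had at most 1 fragment in any library, too few to show a change.

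A further 5.52% ± 0.385 of Brood fragments (SD, n = 2) went to gene13370, on an unplaced scaffold from 35 to 1903 and 1071 bases long. It had 124 and 61 fragments in Honey, 10544 and 9634 in Pollen, and 181409 and 204021 in Brood. The 3 groups were far apart, and the model moved from rank 3055 in Honey to rank 4 in Brood, a log2 change of 12.40 (SE 0.76; adjusted p = 1.38e-06, edgeR). The only other model on its scaffold, from 4807 to 5619, had 50 and 10 fragments in Honey, 1131 and 751 in Pollen, and 4468 and 5322 in Brood. Its log2 change was 8.81 (SE 0.60; adjusted p = 2.61e-06, edgeR), or 9.78 without Honey 1.

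Below these 6 models, the leading list of Brood held models that were already abundant in Honey. The model on linkage group 1 from 6394567 to 6446905 had 27988 and 18324 fragments in Honey against 43333 and 38579 in Brood, and rose 4.44-fold (95% interval 2.24 to 8.81; adjusted p = 0.00178, edgeR). On linkage group 15, the model from 6115532 to 6120177, 258 bases long, had 12035 and 8188 in Honey and 35047 and 32560 in Brood, and rose 8.34-fold (4.21 to 16.5). On the log2 scale these changes were 2.15 and 3.06 with TMM scaling and 0.81 and 1.72 with library totals, and the second was 1.24 with the length trend removed. Each overlaps a model on the opposite strand, and fragments of such pairs may not be separable, since the sources used here do not say whether strand was used in counting.

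The remaining 2 leading models of Brood were also among the 10 leading models of Honey, and neither passed the test with TMM scaling and all libraries. The model on linkage group 6 from 8887054 to 8888190, 288 bases long, held 2.36% ± 0.181 of fragments in Honey and 1.35% ± 0.132 in Brood (SD, n = 2 each). Its log2 change was 0.53 (SE 0.53) with TMM scaling and -0.80 with library totals. The model from 15416369 to 15418677, the neighbour of gene5402 on the same strand, held 1.18% ± 0.439 in Honey and 0.920% ± 0.00281 in Brood. Its log2 change was 0.94 (SE 0.47; adjusted p = 0.106, edgeR), and -0.37 with library totals. It was called higher without Honey 2 (log2 change 1.55, adjusted p = 0.0238, edgeR), by DESeq2 (0.87, adjusted p = 0.0405) and with a minimum count of 50 (1.25, adjusted p = 0.0305, edgeR).

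The budget of Honey was led, after gene5402, by gene202, on linkage group 1 from 3291823 to 3297146. It had 194084 and 136014 fragments in Honey, 52308 and 43352 in Pollen, and 16696 and 13027 in Brood, with no overlap between the groups. Its share went from 4.81% ± 0.148 in Honey to 0.426% ± 0.0799 in Brood (SD, n = 2 each). It fell by 2.15 on the log2 scale (SE 0.49; adjusted p = 0.00268, edgeR), and the call was lost without Brood 2 (log2 change -1.93, adjusted p = 0.0691). The model overlaps 1 model on the opposite strand.

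Of the other leading models of Honey, 3 more fell. On linkage group 6, the model from 189128 to 190923 had 64237 and 27784 fragments in Honey against 4432 and 6756 in Brood, a log2 change of -1.65 (SE 0.46; adjusted p = 0.00927, edgeR). Its call was lost without Brood 1 (-1.43, adjusted p = 0.111), and it lies inside the model from 175095 to 198140 on the opposite strand, which also fell. The model on linkage group 15 from 8188432 to 8198870, 7990 bases long, had 37296 and 41569 in Honey and 5446 and 5930 in Brood, a log2 change of -1.58 (SE 0.45; adjusted p = 0.0102, edgeR). That call was lost without Brood 1 (-1.60), without Brood 2 (-1.58) and without Honey 2 (-0.998), and the change was 0.20 with the length trend removed.

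On linkage group 2, the model from 10681462 to 10694382, 11689 bases long, had 47237 and 11302 fragments in Honey against 4502 and 2666 in Brood. The Honey libraries were far apart, and the log2 change of -1.50 (SE 0.50; adjusted p = 0.0222, edgeR) became -0.76 without Honey 1 and -1.12 without Brood 2, both past the threshold no longer. It was 0.63 with the length trend removed. The last 2 were not called with TMM scaling. On linkage group 1, the model from 7307328 to 7311554 had a log2 change of -0.69 (SE 0.46), and with library totals it was called lower, at -2.06 (adjusted p = 0.000283, edgeR). On linkage group 5, the model from 13088155 to 13092644 had one of 0.46 (SE 0.44), and with library totals it was called lower, at -0.86 (adjusted p = 0.0303, edgeR).

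Over the whole table, 3969 of 6943 tested models (57.2%) were called different between Brood and Honey at an adjusted p of 0.05 in edgeR. Of these, 1971 (28.4%) were higher and 1998 (28.8%) lower in Brood. When the test asked for a change beyond 2-fold, 2067 (29.8%) were called, 938 (13.5%) higher and 1129 (16.3%) lower. With the labelled age as a covariate, which extends the 1 day between replicates 1 and 2 to the gaps between groups, 1815 (26.1%) were called, 889 (12.8%) higher and 926 (13.3%) lower. Among the leading models, gene5402, gene202 and the models starting at 6394567, 189128, 8188432 and 10681462 were not called with it, and the last had a log2 change of 0.32. Within groups the labelled age differs only with the replicate number, so age and spread between replicates cannot be told apart in this fit. With the replicate number as a block, which fits the same differences without extending them, 3901 were called.

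**Figure D2:**
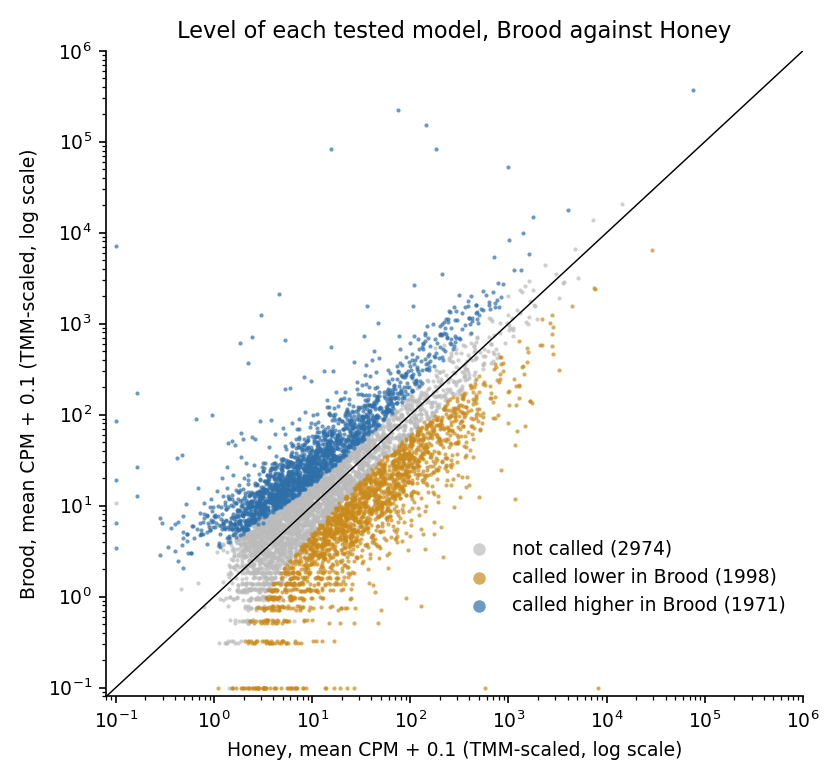
Mean level of each tested model in Brood (vertical axis) against Honey (horizontal axis), in TMM-scaled CPM (fragments scaled to a common library size) + 0.1 on log scales, with models called higher (1971), called lower (1998) and not called (2974) in colour and the line of equal level. The most abundant model, gene5402, lies above the line at the far right, and the called point at the bottom right is a model listed at 0 in Brood.

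The balance of rises and falls rests on the scaling. TMM factors were 1.85 and 1.52 for Honey and 0.633 and 0.688 for Brood. The median log2 change of all tested models was 0.05 with TMM and -1.30 with library totals alone. With library totals, 4010 models (57.8%) were called, but 305 (4.39%) were higher and 3705 (53.4%) lower. Of the 1971 models called higher with TMM, 1396 also had a larger mean share of fragments in Brood. Of the 1998 called lower, 0 had a larger share in Brood. The TMM factors largely fix that 0 in advance, since they raise Brood levels and lower Honey levels relative to shares.

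In terms of the RNA budget, the models called higher took over the library. Their share of fragments was 82.4% ± 0.261 in Brood, against 44.1% ± 8.58 in Pollen and 25.3% ± 0.571 in Honey (SD, n = 2 each). The models called lower went from 44.4% ± 1.90 in Honey to 4.55% ± 0.0150 in Brood. The 2974 models not called went from 30.1% ± 1.37 to 12.9% ± 0.242, and the 3761 models with too few fragments to test held at most 0.266% of any library. These sets come from the same contrast, so their shares describe its size and are no separate test.

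**Figure D3:**
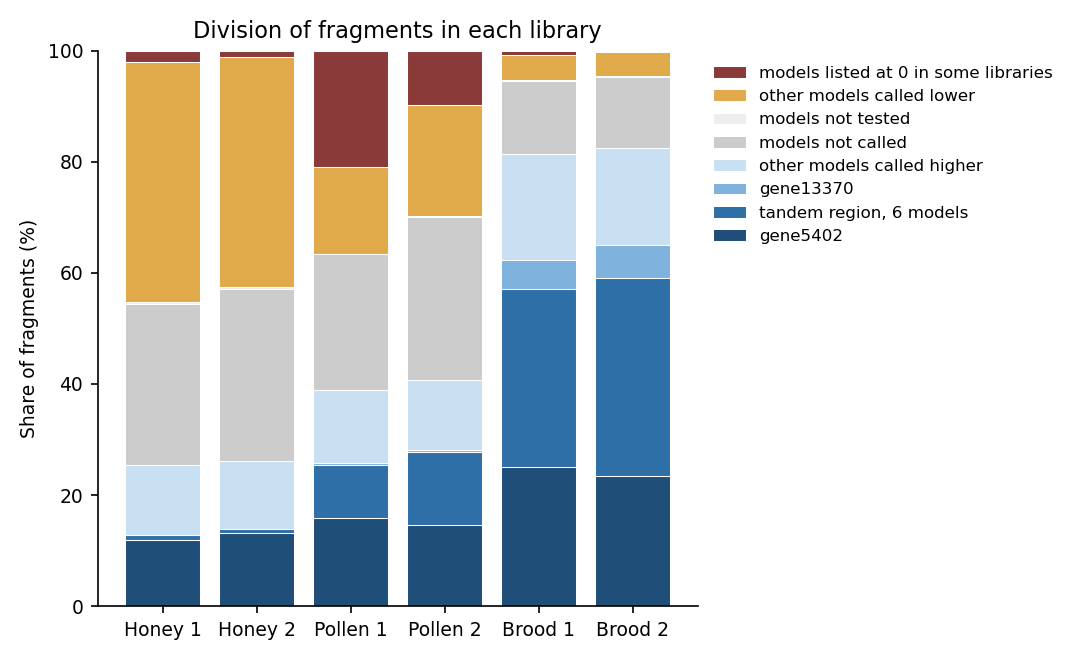
Division of the fragments of each of the 6 libraries (%, stacked bars) into gene5402, the 6 models of the tandem region on linkage group 11, gene13370, the other models by their call between Brood and Honey, models not tested and models listed at 0 in some libraries. In Brood the 3 lowest blocks hold most of the fragments, and the other models called lower shrink from 42.4% ± 1.26 in Honey to 4.49% ± 0.0120 in Brood (SD, n = 2 each).

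Most of the gain sat in the 3 lowest blocks of the plot of budgets, which are gene5402, the 6 models of the tandem region and gene13370. Not all of those 6 added to it. The model from 2581588 to 2584699 fell, and that from 2592827 to 2593803 had only 57 and 65 fragments in Brood. The other 1962 models called higher held 12.5% ± 0.230 in Honey and 18.3% ± 1.20 in Brood (SD, n = 2 each). Among all Honey and Brood libraries, 18 models were among the 10 most abundant of at least 1 library, and they held 29.1% ± 0.687 of Honey and 69.7% ± 1.27 of Brood. Without these 18, the models called higher still went from 11.5% ± 0.222 to 16.7% ± 1.45, and those called lower from 34.9% ± 0.999 to 3.70% ± 0.0510.

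By position, linkage group 11 gained most, from 7.86% ± 0.871 of fragments in Honey to 35.9% ± 2.68 in Brood (SD, n = 2 each), through the tandem region. Linkage group 6, which carries gene5402, went from 20.9% ± 1.25 to 28.5% ± 1.77. Unplaced scaffolds, which carry gene13370, went from 2.47% ± 0.0774 to 7.11% ± 0.382. Each of the other 14 linkage groups held a smaller share in Brood than in Honey, for example 13.0% ± 0.376 against 5.09% ± 0.431 for linkage group 1.

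The mitochondrial genome was represented by 4 models, all added by the authors, and all 4 were called higher in Brood, beside 28.4% of all tested models. They were chosen for description after their values were seen. Together they held 0.239% and 0.316% of fragments in Honey, 0.365% and 0.237% in Pollen, and 1.09% and 0.732% in Brood, so Brood stood apart from both other groups. The model from 445 to 3470 had 8448 and 7199 fragments in Honey against 27017 and 18606 in Brood, with a log2 change of 2.83 (SE 0.50; adjusted p = 0.00055, edgeR). The model from 3616 to 6755 had 1157 and 1145 in Honey and 9191 and 6676 in Brood, with 4.03 (SE 0.54). On library totals these changes were 1.49 and 2.71.

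The other 2 mitochondrial models were uneven between libraries. The model from 10428 to 15529 had 0 and 69 fragments in Honey against 822 and 339 in Brood. Its log2 change was 5.09 (SE 1.17), but 3.97 without Honey 1 and 4.25 without Brood 1, and without Honey 2 the remaining Honey library is at 0. It was not called by DESeq2 (adjusted p = 0.0847). The model from 7319 to 8883, on the minus strand, had 250 and 314 in Honey and 612 and 178 in Brood, so the groups overlapped. Its log2 change of 1.72 (adjusted p = 0.0323, edgeR) was 0.46 without Brood 1 and 1.24 without Honey 1, both past the threshold no longer, 2.38 without Brood 2 and 2.41 without Honey 2, and it was 0.39 and not called with library totals. Of all 360 models added by the authors, 293 were tested. There, 51 were called higher and 122 lower, beside 28.4% higher and 28.8% lower of all tested models, and the median log2 change was -0.93.

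Direction went with model length. Models called higher had a median length of 1102 bases, models called lower 3531.5 bases and models not called 1886.5 bases. In the shortest quintile of model length (up to 718 bases), 505 of 742 tested models were called higher and 37 lower, with a median log2 change of 1.58. In the longest quintile (from 2990 bases), 107 of 1937 were called higher and 1185 lower, with a median of -1.33.

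**Figure D4:**
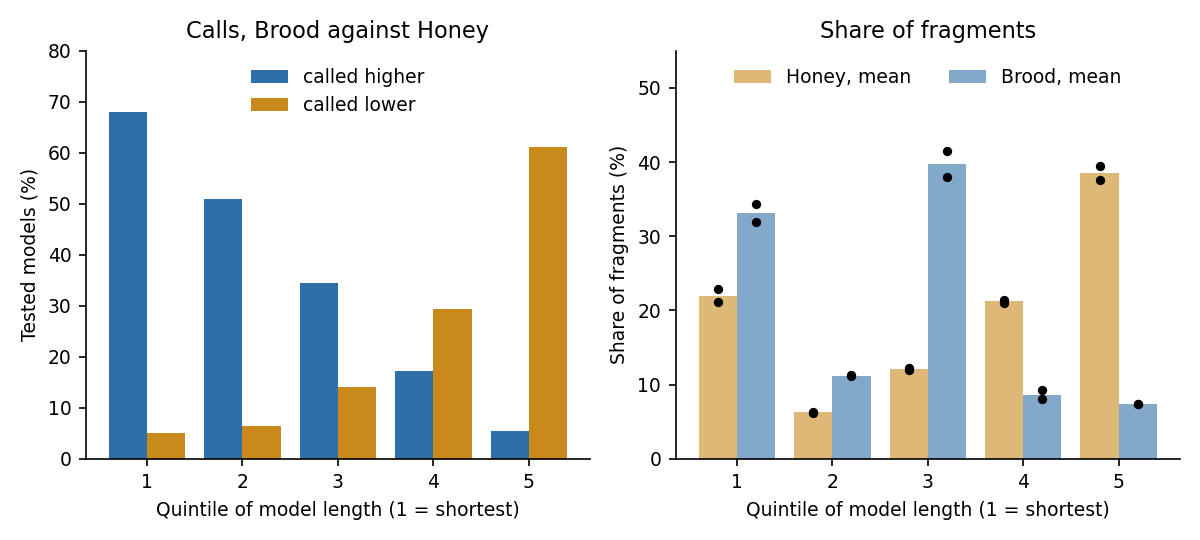
Left, share of tested models called higher or lower in Brood (%, vertical axis) by quintile of model length; right, share of all fragments (%) held by each quintile, as the mean of 2 libraries per group (bars) with each library as a point. The share called higher runs from 68.1% in the shortest to 5.52% in the longest quintile, and the share called lower from 4.99% to 61.2%.

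The budget moved with length in the same way. The longest quintile held 38.5% ± 1.31 of fragments in Honey and 7.38% ± 0.0733 in Brood (SD, n = 2 each). The shortest held 22.0% ± 1.25 and 33.1% ± 1.72, mostly gene5402 in both, and the third quintile, which holds 5 of the leading models of Brood, went from 12.1% ± 0.190 to 39.7% ± 2.48. The shift was also present below the top. Of the fragments left after removing the 18 leading models, the longest quintile held 51.5% ± 1.21 in Honey and 23.5% ± 1.32 in Brood, and the shortest 7.64% ± 0.831 and 20.9% ± 0.279.

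After the length trend of each library was taken out, 2629 models (37.9%) were called, 1392 (20%) higher and 1237 (17.8%) lower. The quintile medians then ran from 0.14 in the shortest to -0.09 in the longest. Length thus moved with direction, and its part in the results was not tested.

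Large rises were fewer than large falls. Leaving out models listed at 0, 1769 models were called higher and 1845 lower by more than 2-fold, 601 and 945 by more than 4-fold, and 93 and 255 by more than 10-fold. Many of the large falls ended near the counting limit. Of the 255, 137 had at most 3 fragments in each Brood library and 53 had 0 in both. Of the 93, 18 had at most 3 in each Honey library and 3 had 0 in both, so most of the rises started from a measured level. Fitted folds of models at 0 depend on the small count that the fit adds and are no bound.

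In most large changes the Pollen level lay in between. The mean level in Pollen was between those of Honey and Brood for 78 of the 93 rises (83.9%) and 226 of the 255 falls (88.6%), against 57.4% of all tested models. The choice by size of change favours this, because groups far apart leave more room between them. Median levels of the 93 were 1.75 CPM in Honey, 9.22 in Pollen and 46.1 in Brood, and those of the 255 were 18.2, 8.37 and 0.869 CPM. The median lengths were 1113 and 3357 bases. Large rises had another large rise as the next model along the genome in 25 of 93 cases (26.9%), and large falls another large fall in 47 of 255 (18.4%). The 93 include models of the stretch on linkage group 11 and both models on the scaffold of gene13370. Shares to be expected of sets of these sizes were not computed, so the 2 shares cannot be compared or read as clustering.

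Beyond the tandem region and gene13370, the largest rises with 1000 or more fragments in each Brood library came from models that were rare in Honey. The model on linkage group 11 from 11123138 to 11132857 had 24 and 11 fragments in Honey, 47 and 62 in Pollen, and 2477 and 3361 in Brood. It stayed low in both groups without brood, and its log2 change was 8.73 (SE 0.46; adjusted p = 5.49e-07, edgeR). On linkage group 2, the model from 3347160 to 3348176 had 393 and 86 in Honey, 39 and 107 in Pollen and 3297 and 3839 in Brood. Its Pollen and Honey libraries overlapped, and its log2 change was 5.41 (SE 0.56), or 6.24 without Honey 1.

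In other rises Pollen stood further above Honey. The model on an unplaced scaffold from 2151 to 3425 had 14 and 7 fragments in Honey, 127 and 176 in Pollen, and 1132 and 1689 in Brood, a log2 change of 8.40 (SE 0.45). A model on linkage group 4 from 11134108 to 11147200 had 25 and 6, 148 and 75, and 1523 and 1739 in the same order, a log2 change of 8.13 (SE 0.56), or 8.92 without Honey 1. In both, each Pollen library lay between Honey and Brood.

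A rise that rests on 1 library stands among the largest. On linkage group 10, the model from 11513564 to 11517002 had 46 and 18 fragments in Honey, 4 and 17 in Pollen, and 4 and 3230 in Brood. Brood 1 lay below both Honey libraries and Brood 2 far above them. It was called higher at a log2 change of 6.98 (adjusted p = 0.00368, edgeR), which became -1.52 if Brood 2 was left out and 7.98 if Brood 1 was left out.

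Leaving out models listed at 0, the largest fall with 1000 or more fragments in each Honey library was that of gene5941, on linkage group 7 from 7421481 to 7427444. It had 6832 and 5936 fragments in Honey, 3893 and 4008 in Pollen, and 42 and 10 in Brood. The Pollen libraries lay near Honey and far above Brood. The log2 change was -6.64 (SE 0.64; adjusted p = 1.72e-05, edgeR), or -8.12 without Brood 1 and -5.92 without Brood 2, and it was also -6.64 with the length trend removed.

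In the next falls the Pollen libraries lay well below Honey. A model on linkage group 11 from 6314545 to 6326838 had 1125 and 1097 fragments in Honey, 104 and 103 in Pollen, and 14 and 12 in Brood, a log2 change of -5.17 (SE 0.41; adjusted p = 7.62e-06, edgeR). On linkage group 6, the model from 175095 to 198140 had 5075 and 4280, 351 and 306, and 54 and 58 in the same order, a log2 change of -5.12 (SE 0.40). In both, the groups were in the order Honey, Pollen, Brood with no overlap.

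The longest model of the table was among them. A model on linkage group 7 from 7135058 to 7336100, 59940 bases long, had 4172 and 1908 fragments in Honey, 630 and 906 in Pollen, and 16 and 42 in Brood. A further model overlaps it on the other strand, and its log2 change of -5.33 (SE 0.46) was -6.10 without Brood 2 and -1.64 with the length trend removed. The other 6 of the 10 largest falls had log2 changes from -4.87 to -4.32. With the length trend removed they ran from -4.38 to -1.75, the last for a model of 18785 bases. Among these 6, the model on linkage group 16 from 100167 to 111747 had 2457 and 1006 fragments in Honey against 24 and 20 in Brood. On linkage group 13, the model from 7585635 to 7907241 had 1186 and 2046 in Honey and 28 and 29 in Brood, with a log2 change of -4.69, or -3.66 without Honey 2 and -5.29 without Honey 1.

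Models that were on in one state and off in the other were few. A model counted as on if both libraries of a group had at least 10 fragments, and as off with 0 in both libraries of the other. Since the fragments chose these models, their values are a description. There were 3 models on in Brood and off in Honey, and 40 on in Honey and off in Brood. Of these, 2 in each direction are models that are listed at 0 in a library although another library gives them 10000 or more fragments, or models that overlap one, and such a zero can be a failed estimate.

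Only 1 model was on in Brood and off in Honey without that doubt. It lies on linkage group 5 from 13731252 to 13736726, is 1595 bases long, and had 0 and 0 fragments in Honey, 4 and 3 in Pollen, and 47 and 39 in Brood. Pollen was low and Brood high, with no overlap. Against a floor of 3 fragments per Honey library, it was 33.9-fold higher in Brood with TMM scaling and 13.6-fold higher with library totals. That floor allows for counting error in a 0 only, so these folds are no strict bounds. Without Honey 1 and without Brood 2 the count of models on in Brood was 14 and 9.

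The other 2 are neighbours on linkage group 6. The model from 4035400 to 4081096 was listed at 0 in both Honey libraries, at 506115 and 0 in Pollen, and at 26420 and 5336 in Brood. The model from 4078213 to 4088611, which overlaps it on the opposite strand, was listed at 0 in Honey, at 700 and 0 in Pollen, and at 166 and 230 in Brood. Both were thus at 0 in 3 libraries of 2 groups, and no fold is given.

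In the other direction, the 2 models listed at 0 belong to the tandem region on linkage group 11, and hold the largest Honey counts of the 40. The model from 2569547 to 2572833 had 74052 and 27774 fragments in Honey and was listed at 0 in all 4 other libraries. It was the fourth most abundant model of Honey, at 1.40% ± 0.560 of fragments (SD, n = 2). The model from 2604510 to 2607949 had 5802 and 1616 in Honey, 337402 and 347627 in Pollen, and was listed at 0 in Brood.

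The other 38 models on in Honey and off in Brood were rare ones. Their fragments summed over Honey ran from 26 to 314 with a median of 54, and together they held 0.0428% ± 0.00692 of Honey fragments (SD, n = 2). Of the 37 that could be tested, 37 were called lower, which the choice of models largely fixes. They were spread over the genome, 2 on unplaced scaffolds, with lengths from 393 to 10552 bases and a median of 1831.5. Models added by the authors made up 8 of the 38, and 8 overlapped a model on the opposite strand.

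The highest of them was the model on linkage group 11 from 8955628 to 8969515, 7152 bases long, with 204 and 110 fragments in Honey, 8 and 10 in Pollen, and 0 and 0 in Brood. It was 20.3-fold lower in Brood against a floor of 3 fragments per Brood library. A model on linkage group 12 from 9078506 to 9081428, which the authors added, had 186 and 85 in Honey, 26 and 34 in Pollen and 0 in Brood. Against the same floor it was 17.1-fold lower. On linkage group 1, the model from 21748211 to 21764761 had 197 and 52 in Honey, 4 and 9 in Pollen and 0 in Brood, 14.7-fold lower against that floor. In all 3 the Pollen libraries lay between Honey and Brood.

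**Figure D5:**
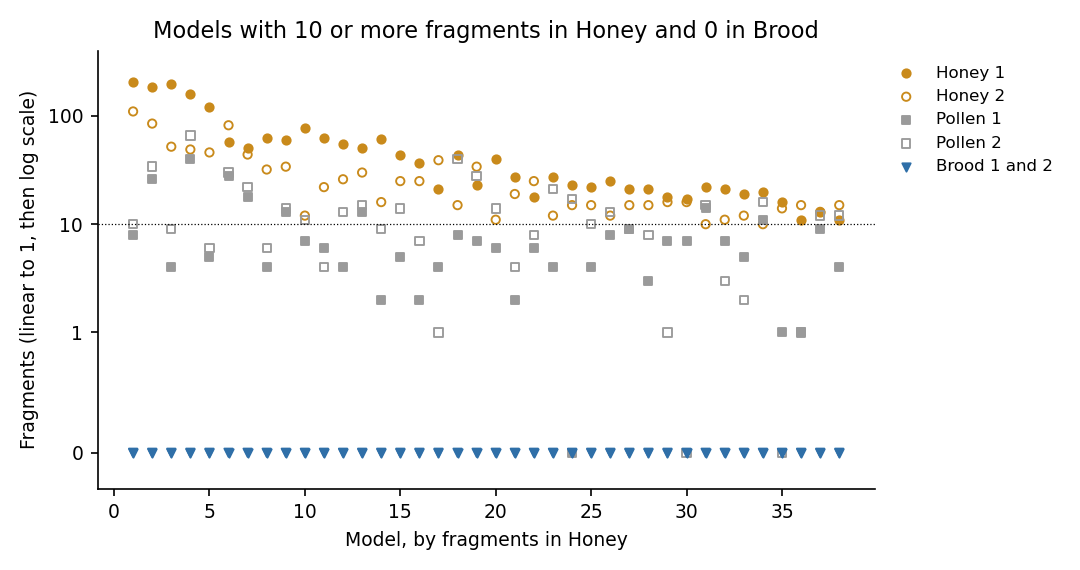
Fragments per library (vertical axis, linear to 1 and logarithmic above) of the 38 models with 10 or more fragments in each Honey library and 0 in both Brood libraries, in order of their Honey fragments (horizontal axis), without the models listed at 0. The dotted line marks 10 fragments, and 35 of the 38 models had fragments in both Pollen libraries.

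Most of the 38 were not switched off in Pollen. All 38 had a fragment in at least 1 Pollen library and 35 had fragments in both. Both Pollen libraries lay below both Honey libraries for 25 of the 38 on the CPM scale. The choice of models by their fragments in Honey favours this, and the share over all tested models is not given here, so the count is a description only. The median level was 4.42 CPM in Honey and 2.36 CPM in Pollen, and the floor of 3 fragments per Brood library corresponded to 1.30 CPM.

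Depth limits how far these zeros can be read. Had the 38 models kept their Honey level, TMM-scaled, 19 would have been expected at 10 or more fragments in each Brood library, and all 38 with scaling by library totals. Lower bounds of the fall ran from 1.84-fold to 20.3-fold with TMM, and 34 of the 38 exceeded 2-fold. The count of 40 was 97 without Brood 1, 118 without Brood 2, 51 without Honey 1 and 112 without Honey 2, since 1 library fewer has to meet the rule.

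The number of models with any fragment was also lower in Brood. At 1 or more fragments, 8915 and 8633 models were detected in Honey, 8472 and 8682 in Pollen, and 7892 and 8133 in Brood. At 10 or more fragments the counts were 7124 and 6391 in Honey and 5460 and 5663 in Brood. Of all 10704 models, 1209 had no fragment in any library. There were 867 with fragments in a Honey library and none in Brood, and 167 with fragments in a Brood library and none in Honey.

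The difference in detection was larger before the leading models were set aside. At a common depth of 2764870 fragments, 8732.55 and 8633 models would be expected in Honey and 7771.41 and 7999.39 in Brood. The 18 leading models left 2942187 and 1947230 fragments for all others in Honey, but 1080937 and 1038186 in Brood. At a common depth of 1038186 fragments outside those 18, the expected numbers were 8357 and 8252 in Honey and 7855 and 8116 in Brood. The means were then 8304 ± 73.9 and 7985 ± 185 (SD, n = 2 each), and both Honey libraries still lay above both Brood libraries.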

How the data were processed

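Per the labels' protocols, libraries were made with the NEBNext Ultra kit from 3 ug of total RNA. Per the file headers, the authors deposited for each model a raw fragment count, a normalized count (treated as a signal), an FPKM value and a length. Aligner, counting tool, annotation and strand are not given in the sources used here. From the values, raw counts equal fractional estimates within 0.02 fragments for 68.6% to 76.9% of models and are rounded up otherwise.

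Raw counts were filtered (filterByExpr, minimum count 10), TMM-scaled and tested (R 4.3.3, edgeR 4.0.16, two-sided quasi-likelihood test) with all 6 libraries in 1 fit (3 residual degrees of freedom) and Benjamini-Hochberg adjustment over 6943 models. Every adjusted p comes from this test unless limma or DESeq2 is named. The SE is the log2 change divided by the square root of its F, and intervals (95%) rest on it. CPM uses TMM-scaled totals. Expected detection is hypergeometric. Floors of 3 fragments cover counting error only. Colonies were separate per the labels.

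Described by rule were the 10 most abundant models of each group, the largest called changes at 1000 or more fragments without overlap of the groups, and the on/off models with most fragments. Mitochondrial models, models around the tandem region and the model on linkage group 10 were chosen after their values were seen. Models, lists and rules were chosen with earlier results of these data known. Alternatives were DESeq2 1.42.0, limma 3.58.1 on FPKM, other scalings, filters and limits. No columns of other samples were present (0).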

Additional observations from a re-analysis of the deposited data

How the results depend on the processing

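Of the values of single models under each alternative, 769 kept direction and side of the threshold, 44 lost the threshold, 4 gained it and 10 reversed. With library totals the log2 change was -0.80 for the model at 8887054, -0.37 for that at 15416369 and -0.86 for that at 13088155, with the length trend removed it was -1.23 for 8887054, 0.20 for 8188432 and 0.63 for 10681462, with age it was 0.25 for 7307328, 0.32 for 10681462 and -2.19 for 11513564, and for 11513564 it ran from -1.52 without Brood 2 to 7.98 without Brood 1. The number of models called (3969) was 1815 with age, 2629 without the trend with length and 2067 for changes beyond 2-fold, which asks for more. It was 3355 with DESeq2, 3790 and 3700 with limma on FPKM with pseudocounts of 1 and 0.1, 4245 unfiltered, and 3031 to 3607 without single libraries, where a lone library is assumed to vary like the other groups. By the labels, replicate 2 of each group came from bees 1 day older than replicate 1. Deviations of same-numbered Brood and Honey libraries correlated at 0.0403 across 6943 models. With the replicate number as a block, 3901 models were called with 6 libraries and 3880 with 4, where gene5402 was not called (adjusted p = 0.185, edgeR). With 6 libraries, this block and the age covariate fit the same differences within groups, and only age extends them to the gaps between groups.

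The share of the 10 most abundant models was 84.1% in Brood and 66.8% in Honey per base and 74.8% and 31.8% without overlapping models. The number of models holding 50% was then 1 and 3 in Brood and 1.5 and 72.5 in Honey, and without single libraries 4 to 4 and 88 to 117, with shares of 66.9% to 69.1% and 26.8% to 28.0%. With calls from library totals, calls from the length fit, and without the 18 leading models, in this order, models called higher held 72.1%, 53.5% and 16.7% of Brood and 15.9%, 12.7% and 11.5% of Honey. Models called lower held 12.1%, 2.29% and 3.70% of Brood and 66.2%, 23.9% and 34.9% of Honey, and models not called 15.7%, 44.1% and 9.85% of Brood and 17.8%, 63.2% and 24.3% of Honey. Models detected were 5561.5 in Brood and 6757.5 in Honey at 10 fragments, and 8304 in Honey at common depth without the leading models.

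Models on in Brood (3) were 6 with an on limit of 5 fragments, 7 and 13 with off limits of 1 and 3, 1 without models listed at 0, and 4 to 14 without single libraries. Models on in Honey (40) were 100 and 18 with on limits of 5 and 20, 96 and 280 with off limits of 1 and 3, 21 with a limit of 3 CPM, 21 where 10 fragments were expected in each Brood library (chosen after seeing the data, as was rounding the estimates to the nearest whole number), and 51 to 118 without single libraries. Looser and stricter limits admit more and fewer models by construction, and other causes were not tested. The 2 libraries per group and the depth outside the leading models limit what can be said of rare models.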
